A study of Rattus norvegicus with 24 samples.

Results

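Wide cocaine INO80 peaks absent from the saline list are regions of 400 bp or more in the cocaine peak list that share no base with any saline peak. On chromosomes 1 to 20 and X the cocaine list held 71280 peaks, and 2090 of them met this rule. Peaks of 400 bp or more made up 3.12% of the list at large, 2223 peaks in all, and 133 of these shared a base with a saline peak. The saline list was far shorter, with 2352 deposited peaks against 71723 in the cocaine list over all sequences. Sharing no base with a saline peak was the usual state of a cocaine peak at any length, with 97.5% of the list in it. The members were chosen by peak length and by absence from the saline list. Pileup, fold and summit come from the same call, so all values below are descriptions and no test was made on them.

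INO80 is the ATPase of a remodelling complex that slides nucleosomes and exchanges histone variants, and it is known from transcription, replication and DNA repair. Its occupancy was read by chromatin immunoprecipitation and sequencing (ChIP-seq) in nucleus accumbens, a reward region of the ventral striatum, from rats of a cocaine and a saline group. In such data a narrow peak marks a point of enrichment, and a wide one a stretch over which enriched fragments run on with at most short breaks. Chromatin remodellers can occupy stretches longer than 1 nucleosome, for example over promoters and enhancers.

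The cocaine group consisted of rats trained to self-administer cocaine, with tissue taken 30 days after extended access, in withdrawal. Saline is the label of the control group, whose protocol text is the same. Strain, sex and age are not given in the sources used here, nor is whether a numbered sample is 1 animal. Each treatment had 3 numbered samples, each with ChIP and input DNA in 2 runs, which gives 24 libraries in 4 groups of 6. The tissue carries many cell types, so fewer occupied cells and less INO80 per cell cannot be told apart. Peaks were called once per treatment on the 3 ChIP samples pooled against the 3 pooled inputs, so there is 1 list per treatment, no value per sample and no replicate error. The cocaine pool held 43489910 ChIP tags and the saline pool 37905014, a ratio of 1.15. The saline signal at the members is not in the peak lists, and absence means that no peak was called there. Genes, gene parts and sequences at the peaks were not analysed here, since the peaks are on rn6 and the gene tables at hand are on another assembly.

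The members were mostly moderately wide, with a long tail. Their median length was 530.5 bp, with quartiles of 452 and 681.75 bp, against a median of 100 bp for the 69057 cocaine peaks shorter than 400 bp (the short peaks from here on). The median equals 9.82 times the 54 bp fragment length that the peak caller used. There were 862 members of 400 to 499 bp, 781 of 600 bp or more, 141 of 1000 bp or more and 5 of 2000 bp or more. The longest covered 3540 bp. Members covered 1285 kb together, 13.3% of all bases in cocaine peaks on these chromosomes. Peaks just inside the length limit did not stand apart from those just outside it. The 61 members less than 5 bp above the limit had a median pileup of 38 (range 14 to 83), and the 54 saline-free peaks up to 5 bp below it had a median of 38.5 (range 13 to 86). The median folds of these groups were 11.5 and 11.8.

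Wide peaks were taller than short ones as well as longer. The pileup, which counts the ChIP fragments stacked over the summit, had a median of 37 in the members, with quartiles of 27 and 52 and a range of 11 to 104. Short peaks had a median pileup of 18, with quartiles of 14 and 28 and a range of 7 to 108. The ratio of medians was 2.06, and the ranges overlapped almost completely. A pileup of 20 or more was reached by 1938 members (92.7%, Wilson 95% interval 91.5 to 93.8) and by 31826 short peaks (46.1%, 45.7 to 46.5). This and later intervals cover counting error alone, and peaks close to each other are not independent.

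Fold over local input rose less with length than pileup did. The fold is the caller's ratio of pileup to local input background at the summit, and its median was 11.9 in members (quartiles 9.66 and 14.7) and 7.44 in short peaks (5.90 and 10.1). A fold of 10 or more was found in 1499 members (71.7%, 69.8 to 73.6) and in 18450 short peaks (26.7%, 26.4 to 27.0). At the lower end, a fold under 5 occurred in 13 members (0.622%, 0.364 to 1.06) and in 7159 of the 67429 short peaks without a saline peak (10.6%, 10.4 to 10.9). The saline criterion bears on the count for members, since 84 of the 133 wide peaks that it left out had a fold under 5. The highest fold among members was 27.6 and that of the short peaks 31.3, so the single sharpest site of the list was a short peak. Median −log10 p was 34.5 in members and 14.4 in short peaks.

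The rise was gradual over the whole range of lengths, with no step at 400 bp. Among peaks without a saline counterpart the median pileup was 15 at 54 to 99 bp, 21 at 100 to 199 bp, 27 at 200 to 299 bp and 31.5 from 300 bp to the limit. It was 33.5 at 400 to 499 bp, 36 at 500 to 599 bp, 39 at 600 to 799 bp, 42 at 800 to 999 bp and 48 at 1000 bp or more. Median fold climbed from 6.56 in the shortest band to 11.0 between 300 bp and the limit. It then went from 11.4 at 400 to 499 bp to 12.9 at 1000 bp or more, with 12.1 at 800 to 999 bp. Within the members, length went only loosely with pileup (Spearman's rho 0.19 over 2090 peaks) and with fold (0.13). These peaks share 1 pool of libraries, and length and pileup are read from the same signal.

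**Figure D1:**
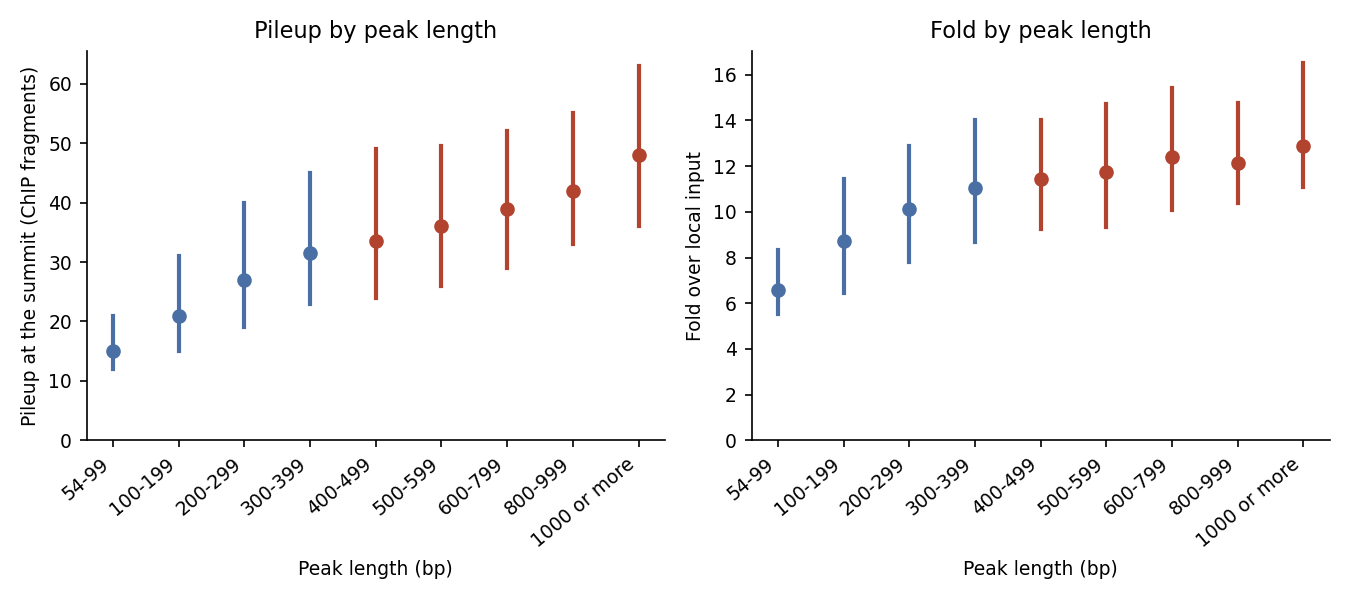
Pileup at the summit in ChIP fragments (left) and fold over local input (right) by peak length in bp, for cocaine peaks without a saline peak. Points are medians and bars span the quartiles. Blue bands are shorter than 400 bp and red bands are the members. Median pileup goes from 15 in the shortest band to 48 at 1000 bp or more without a step at the limit, while median fold flattens above it.

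The input under the summit was somewhat deeper at wide peaks, but seldom deep. The median local background of the members was 1.46 times the genome-wide level of 1.17 fragments, against 1.09 times at short peaks. The background is the highest of several estimates, and its exact value shows which one set it. The flat genome-wide level applied to 409 members (19.6%, 17.9 to 21.3) and to 28539 short peaks (41.3%, 41.0 to 41.7). Input reads stacked in the fragment window itself set it at 1449 members (69.3%, 67.3 to 71.3) and 37665 short peaks (54.5%, 54.2 to 54.9). The remaining 232 members (11.1%, 9.82 to 12.5) and 2853 short peaks (4.13%, 3.99 to 4.28) took theirs from the surrounding 1 or 10 kb. Each input read in the fragment window counts as 0.429 fragments after scaling, so whole input reads could be recovered from the values. Where the fragment window set the background, the median member had 6 input reads there. In all, 970 members (46.4%, 44.3 to 48.6) had 5 or more, against 17244 short peaks (25.0%, 24.6 to 25.3).

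This input moved with pileup rather than with length alone. Among saline-free peaks with a pileup of 20 to 29, members and short peaks alike had input at a median of 1.09 times the genome-wide level, and at 30 to 39 both had 1.46. At 40 to 59 both had 2.19. Members with a pileup of 60 to 79 had 3.65 and short peaks 4.01. Within these bands fold was slightly higher in members, with 13.2 against 12.5 at a pileup of 30 to 39 and 14.4 against 13.2 at 40 to 59. Pileup was not matched inside a band and enters the fold, so a fold difference at equal pileup is not shown.

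Deep input was rare among the members, and the saline criterion removed most of it. A background of 10 times the genome-wide level or more was found at 17 of them (0.813%, 0.508 to 1.30), against 922 short peaks without a saline peak (1.37%, 1.28 to 1.46). Among wide peaks with or without a saline peak it was found at 109 of 2223, and 92 of these 109 shared a base with a saline peak. These 17 had a median pileup of 95 and a median fold of 5.73, and 5 of them were on chromosome 1. The 1717 members under 3 times the genome-wide level had a median pileup of 34 and a median fold of 12.4. Most members thus stood over ordinary input coverage, with 82.2% (80.5 to 83.7) under 3 times. That share was higher in short peaks without a saline peak, with 93.8% (93.6 to 94.0).

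Wide peaks that did overlap a saline peak were a different set by input. Their 133 peaks stood over input of 23.0 times the genome-wide level by median, with a median pileup of 93 and a median fold of 3.31. At ordinary input the picture was the reverse for pileup. The 32 overlapping wide peaks under 3 times the background had a median pileup of 23 (range 13 to 50) and a median fold of 11.0, below the 34 and 12.4 of the members in that class. They also stood more alone, with a cocaine neighbour within 1 kb at 43.8% of them against 83.4% of the members in that class. Absence from the saline list varied with input. It was the state of 1717 of 1749 wide peaks under 3 times the background (98.2%, 97.4 to 98.7) and of 17 of 109 at 10 times or more (15.6%, 9.97 to 23.6). Short peaks also showed a fall, from 63254 of 63440 (99.71%, 99.66 to 99.75) to 922 of 2346 (39.3%, 37.3 to 41.3).

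At the flat genome-wide background the 409 members had a median pileup of 26 and a lowest pileup of 12. The saline list contained 254 peaks of any length at its own genome-wide background, with a median pileup of 11 and a lowest pileup of 7. These values come from 2 pools of unequal depth, and whether depth has a part in the absence of saline calls was not tested.

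The summit lay off centre more often in wide peaks than in short ones as a whole. Short peaks were centred, with 22.0% and 21.0% of their summits in bins 5 and 6 when each peak was divided into 10 equal bins from left to right. Members had 10.9% and 11.4% there, and a nearly flat spread from bin 2 (12.2%) to bin 9 (11.1%). In the outermost bins, 1 and 10, members had 6.03% and 5.26% of their summits and short peaks 0.607% and 0.497%. Placed on a scale from 0 at the centre to 0.5 at an edge, the summit lay a median of 0.227 from the centre in members (quartiles 0.114 and 0.344) and 0.123 in short peaks (0.0513 and 0.219).

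**Figure D2:**
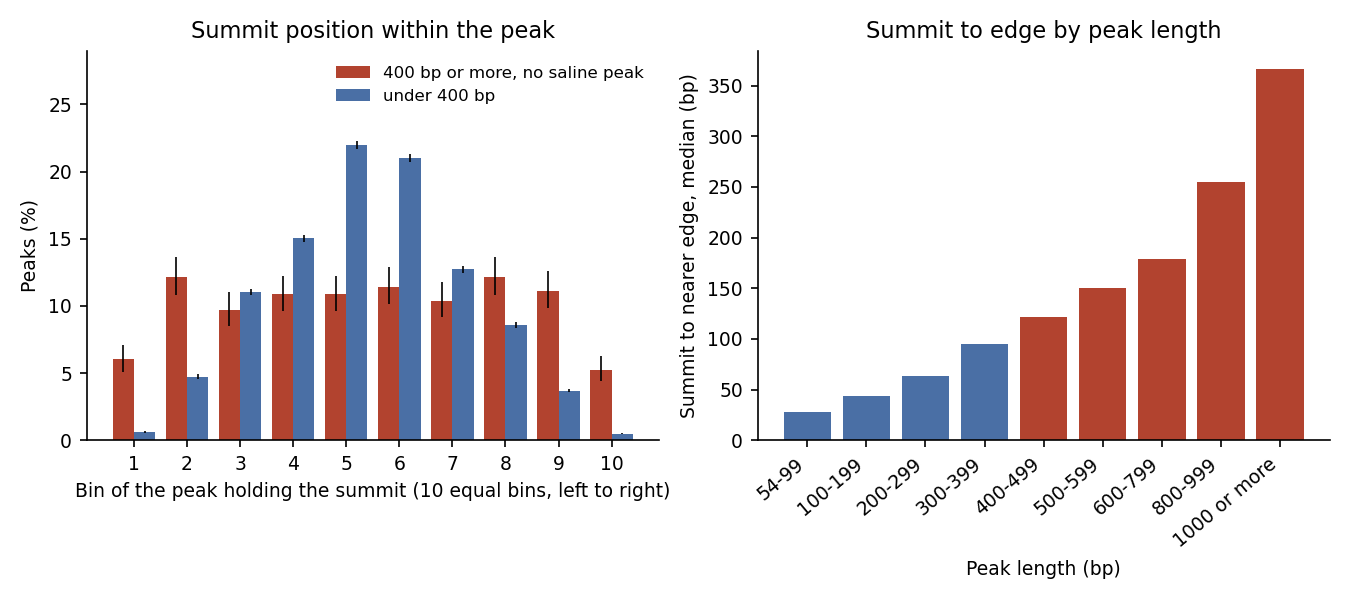
Left, percentage of peaks whose summit falls in each of 10 equal bins of the peak from left to right, for the 2090 members (red) and the 69057 short peaks (blue), with Wilson 95% intervals. Right, median distance from the summit to the nearer edge in bp by peak length for peaks without a saline peak. Short peaks gather in bins 5 and 6, members spread almost evenly from bin 2 to bin 9, and the edge distance goes from 28 bp to 366 bp.

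The off-centre spread was symmetric in the members. Their summit lay left of the centre in 1037 peaks (49.6%, 47.5 to 51.8) and right of it in 1051 (50.3%, 48.1 to 52.4). Short peaks leaned slightly to the left, with 36914 left of the centre (53.5%, 53.1 to 53.8) and 31075 right of it (45.0%, 44.6 to 45.4). Their median summit lay at 0.484 of the length from the left edge, against 0.503 in members. Off-centre position changed little across the wide lengths, with medians of 0.230 at 400 to 499 bp, 0.231 at 600 to 799 bp and 0.203 at 1000 bp or more. It was already 0.232 at 200 to 299 bp and 0.224 from 300 bp to the limit. Peaks under 200 bp were the most centred, with 0.175 at 100 to 199 bp and 0.0738 at 54 to 99 bp. The loss of centring was thus present well below the 400 bp limit.

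In bp, the summit lay a median of 149 from the nearer edge in members and 36 in short peaks, whose own length limits that distance. Even so, 294 members (14.1%, 12.6 to 15.6) had their summit within 54 bp, 1 fragment length, of an edge. Members with the summit near an edge and those with it near the centre were alike in height. The 721 with the summit less than 0.2 of the length from an edge had a median pileup of 37 and a median fold of 12.0. The 779 with it in the middle section, from 0.33 to 0.67 of the length, had 37 and 11.8. Their median lengths were 529 and 532 bp.

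The most lopsided members show how far the tallest point could be from the middle. On chromosome 3 (110586918 to 110587888) a 971 bp peak had its summit 35 bp from the left edge and 935 bp from the right edge, with a pileup of 34. Another on chromosome 3 (123721581 to 123723506) measured 1926 bp and had its summit 73 bp from the right edge, with 47 fragments at a fold of 17.7. Next were chromosome 3 (147758668 to 147759498), with 34 bp to the left edge, and chromosome 5 (25578357 to 25579982), with 71 bp to the right edge. The fifth, on chromosome 2 (151684833 to 151685952), had 50 bp to its left edge. Of these 5, 4 had another cocaine peak within 114 bp, and the one on chromosome 5 had none closer than 3520 bp.

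Members lay on all 21 chromosomes studied, and the chromosomes with many short peaks also had many members. Over the 21 chromosomes the densities of members and short peaks per Mb were correlated, with a Spearman's rho of 0.742 as a description, since both come from the same pool. Chromosome length was taken as the end of the last peak. Density was 0.753 members per Mb over these chromosomes, with 1.70 on chromosome 10 (191 members), 1.20 on chromosome 1 (339 members) and 1.01 on chromosome 12 (53 members). It was lowest on chromosomes 13 (0.360, 41 members) and 16 (0.386, 35 members).

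Taken as a share of the cocaine peaks on each chromosome, members were most frequent on X. They made up 133 of 2826 peaks there (4.71%, 3.99 to 5.55), against 1957 of 68454 on the autosomes (2.86%, 2.74 to 2.99). Chromosome 1 followed with 3.52% (3.17 to 3.91), and chromosomes 16 and 13 were lowest with 1.74% (1.26 to 2.41) and 1.82% (1.34 to 2.46). Chromosome 10, the densest, had 3.14% (2.73 to 3.60), close to the 2.93% of the whole set. The median length of members on X, 534 bp, and their median pileup of 37 were close to the autosomal 530 bp and 37. Local input on X was shallower, with the flat genome-wide background at 41.4% of its members against 18.1% on the autosomes, and at 58.8% against 40.6% of short peaks.

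The higher share on X was present in both background classes. At the genome-wide background 55 of 1638 peaks on X were members (3.36%, 2.59 to 4.35), against 354 of 27329 on the autosomes (1.30%, 1.17 to 1.44). Above that background the shares were 78 of 1188 (6.57%, 5.29 to 8.12) and 1603 of 41125 (3.90%, 3.72 to 4.09). Without the 1 Mb window of X that held most members, the share on X was 4.47% (3.74 to 5.34).

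**Figure D3:**
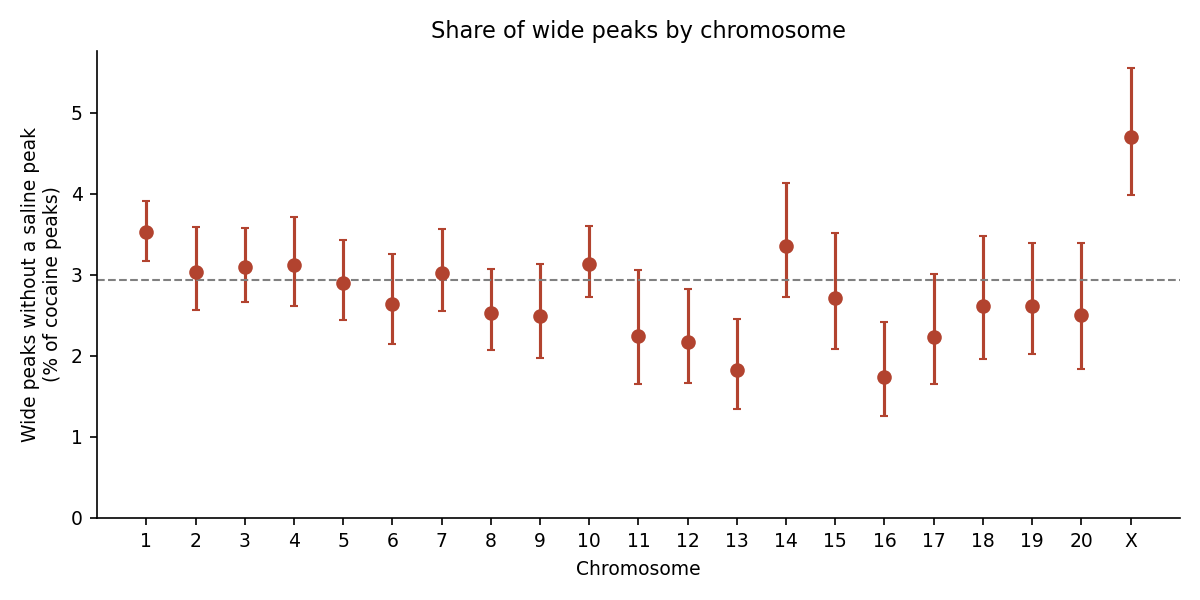
Members as a percentage of all cocaine peaks on each chromosome, with Wilson 95% intervals. The dashed line marks 2.93%, the share over all chromosomes shown. X stands highest at 4.71%, and chromosomes 16 and 13 are lowest at 1.74% and 1.82%.

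Members were spread thinly, with a few local concentrations. They fell into 910 windows of 1 Mb, where 2510 windows held a short peak, and 428 of the 910 had a single member. The 92 windows with 5 or more members contained 655 of them. The fullest, on chromosome 10 (56000000 to 56999999), had 20 members beside 250 short peaks. It was followed by chromosome X (156000000 to 156999999) with 18 beside 235, chromosome 19 (25000000 to 25999999) with 17 beside 187, and chromosome 1 with 14 beside 225 (198000000 to 198999999) and 13 beside 211 (220000000 to 220999999). The same 5 places held the members with most others within 100 kb. The peak on chromosome 10 (56527103 to 56527738) had 9 other members that near, and so did the one on chromosome X (156400798 to 156401224). Those on chromosome 19 (25786110 to 25786522) and chromosome 1 (198228422 to 198228948 and 220416009 to 220416757) had 7, 6 and 6. The X peak stood out by its fold of 23.2, where the other 4 had folds from 8.05 to 16.2. The last of these, on chromosome 1 (220416009 to 220416757), shared its pileup of 43 and fold of 16.2 with another member of its window, of almost equal length. Such look-alike members on 1 chromosome were also found elsewhere, for example on chromosomes 2 and 6. Each was counted as a separate member, and whether they are copies of 1 sequence was not tested.

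Most wide peaks had another cocaine peak within 1 kb. The nearest other cocaine peak lay a median of 129 bp from the edge of a member and 552 bp from the edge of a short peak, a ratio of 4.28. Some cocaine peak was within 100 bp of 827 members (39.6%, 37.5 to 41.7) and of 11411 short peaks (16.5%, 16.2 to 16.8). Within 1 kb the counts were 1742 members (83.3%, 81.7 to 84.9) and 41868 short peaks (60.6%, 60.3 to 61.0). Peaks lay within 1 kb on both sides of 840 members (40.2%, 38.1 to 42.3) and of 16796 short peaks (24.3%, 24.0 to 24.6). The nearest neighbour was mostly small, with a median length of 158 bp beside members and 109 bp beside short peaks. It was itself 400 bp or longer for 258 of the 1742 members with a neighbour within 1 kb (14.8%, 13.2 to 16.6), and for 1589 of 41868 short peaks (3.80%, 3.62 to 3.98).

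The closeness was a matter of the first kb. Counted outside the peak's own edges, members had a mean of 1.11 other peaks per kb in the first kb on each side, and short peaks 0.673. From 1 to 10 kb the means were 0.308 and 0.297 per kb, and from 10 to 100 kb 0.105 and 0.107. Membership in large clusters was likewise about equal. Joining cocaine peaks less than 10 kb apart put 999 members in clusters of 10 peaks or more (47.8%, 45.7 to 49.9), and 32906 short peaks (47.7%, 47.3 to 48.0). Standing alone at that distance was less frequent for members, with 113 (5.41%, 4.52 to 6.46) against 7199 short peaks (10.4%, 10.2 to 10.7).

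**Figure D4:**
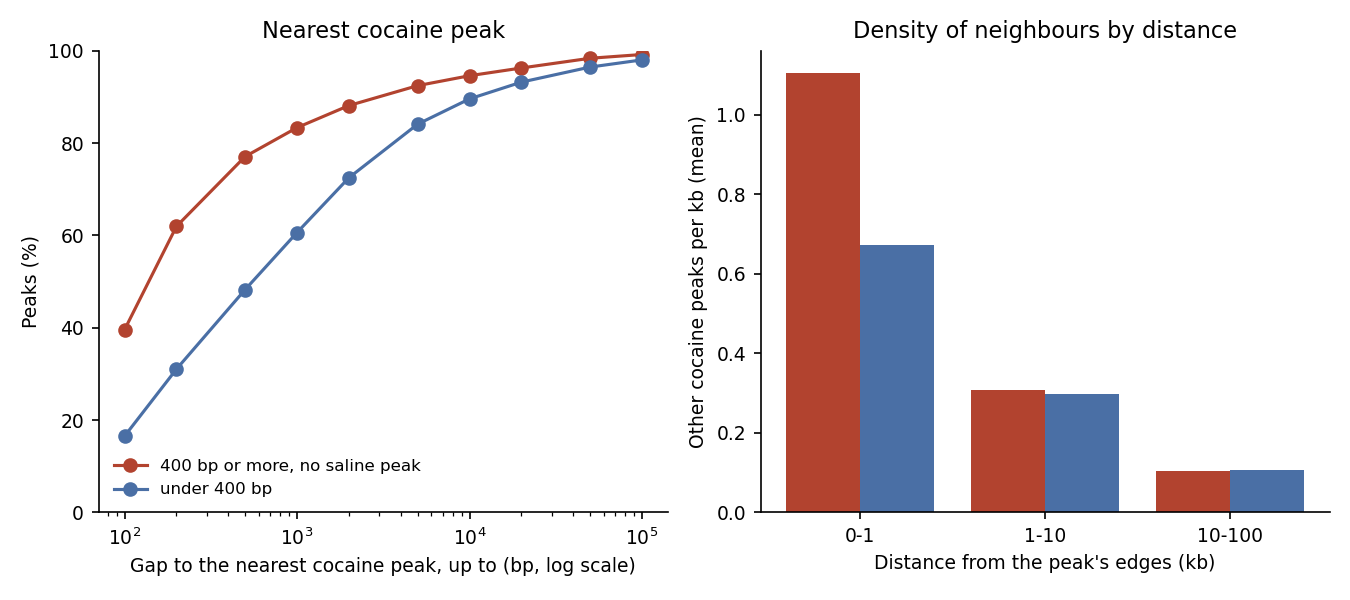
Left, percentage of members (red) and short peaks (blue) whose nearest cocaine peak lies within the gap on the x axis, in bp on a log scale. Right, mean number of other cocaine peaks per kb at 0 to 1, 1 to 10 and 10 to 100 kb outside the peak's edges. The curves are furthest apart at gaps up to 200 bp (62.0% against 31.0%), and the bars differ mainly in the first kb (1.11 against 0.673).

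Members had close neighbours more often than short peaks also within the same pileup band, up to a pileup of 79. Among peaks without a saline counterpart, a neighbour within 1 kb was found beside 84.2% of members at a pileup of 10 to 19 (77.6 to 89.2) and 54.9% of short peaks (54.4 to 55.4). At 30 to 39 the shares were 82.6% (78.9 to 85.7) and 68.6% (67.5 to 69.7). At 60 to 79 they were 82.7% (77.5 to 86.9) and 74.7% (72.5 to 76.8), and at 80 to 108 the intervals overlapped, with 85.4% (76.6 to 91.3) and 77.3% (72.5 to 81.5). The share in members hardly moved with pileup, while that of short peaks climbed towards it. Membership in large clusters was lower in members at middle pileups. At a pileup of 20 to 29 they held 43.9% of members (39.7 to 48.2) and 53.9% of short peaks (53.1 to 54.6), and at 40 to 59 they held 51.2% (47.2 to 55.1) and 57.3% (56.0 to 58.6). The intervals overlapped at 10 to 19 (37.5% and 41.4%), 60 to 79 (49.0% and 51.5%) and 80 to 108 (38.2% and 42.4%). The longest members were also the least often in such clusters, with 51.7% at 400 to 499 bp and 34.8% (27.4 to 42.9) at 1000 bp or more.

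**Figure D5:**
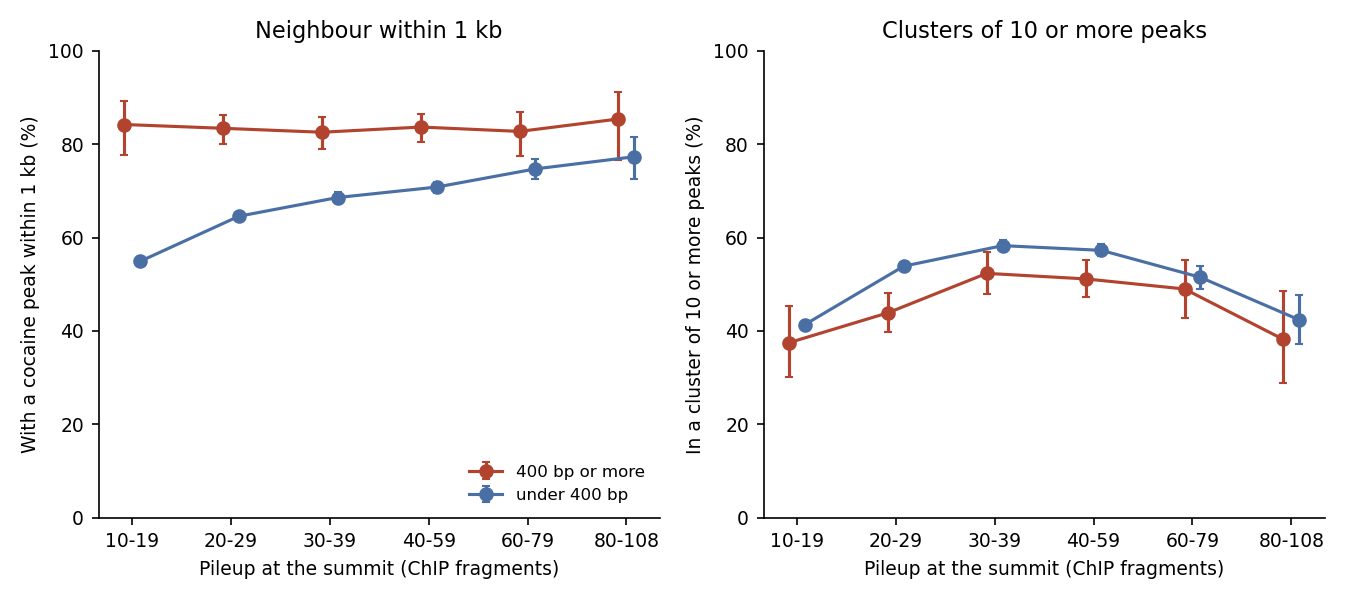
Percentage of peaks with a cocaine peak within 1 kb (left) and in a cluster of 10 or more peaks (right) by pileup at the summit, for members (red) and short peaks without a saline peak (blue), with Wilson 95% intervals. Members stay between 82.6% and 85.4% on the left, where short peaks go from 54.9% to 77.3%, and lie below them on the right, with overlapping intervals at 10 to 19, 60 to 79 and 80 to 108.

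How peaks were delimited bears on these distances. The smallest gap between 2 cocaine peaks was 52 bp, 1 bp more than the 51 bp tag size, so signal interrupted for less was not split. After joining peaks closer than 500 bp in both lists, 9307 regions met the rule, and 39.7% of them had a neighbour within 1 kb, against 24.4% of the regions left shorter than 400 bp. Only gaps of 500 bp or more remained, and joining close peaks itself made regions long. These shares thus partly follow from the joining, and nothing is drawn from their order.

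Joined across gaps of up to 200 bp, the 2090 members fell into 1874 stretches, of which 795 were a single member with nothing attached. Such stretches had a median span of 803 bp and a median of 2 peaks, and 689 of them (36.8%) reached 1000 bp. A further 381 stretches of 1000 bp or more had no member and consisted of other cocaine peaks in a row. The longest stretch, on chromosome 1 (11906095 to 11914879), spanned 8785 bp with 9 peaks, 2 of them members. These 2 members are also among those nearest to a saline peak, and they stood over deep input, at 17.1 and 12.7 times the genome-wide background. Next came chromosome 10 (13156491 to 13162107), with 4 members among 8 peaks over 5617 bp and a highest pileup of 77. Chromosome 8 (116981109 to 116985232) had 2 members over 4124 bp, chromosome 14 (86733742 to 86737823) had 3 members among 10 peaks with a highest pileup of only 29, and chromosome 19 (25818189 to 25822034) had 3 members over 3846 bp.

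Another member was within 1 kb of 523 members (25.0%, 23.2 to 26.9) and within 100 kb of 1284 (61.4%, 59.3 to 63.5). The median gap from a member to the next one was 35.7 kb. Those with another member within 1 kb had a median length of 558 bp and a median pileup of 38, close to the members at large.

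Saline peaks lay about as far from members as from short peaks without a saline counterpart. The median gap was 1.24 Mb for members (quartiles 0.380 and 3.83 Mb) and 1.31 Mb for short peaks (0.370 and 3.88 Mb). A saline peak was within 1 kb of 12 members (0.574%, 0.329 to 1.0) and within 10 kb of 60 (2.87%, 2.24 to 3.68). For short peaks without a saline counterpart the shares were 0.974% and 2.55%, so both counts of members were close to the general share or below it. The 12 had a median pileup of 76.5 over a local input of 6.75 times the genome-wide level by median, well above the members at large. The closest, 72 bp from a saline peak, was on chromosome 1 (11908949 to 11909510), with 87 fragments at a fold of 4.17. Of the 5 closest, 2 stood over ordinary input. That on chromosome 12 (30810417 to 30810897) lay 95 bp from a saline peak and had 29 fragments at a fold of 13.8, and that on chromosome 10 (57291204 to 57291688) lay 102 bp away and had 30 fragments at a fold of 11.4. The remaining ones, on chromosome 1 (11906221 to 11906818 and 55656835 to 55657235), had folds of 3.63 and 1.90, the latter the lowest of all members.

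Ranked by length, by pileup and by fold, the members gave separate lists of 10 with no peak in common. The longest member, on chromosome 9 (37057058 to 37060597), ran over 3540 bp and reached 84 fragments at a fold of 6.54. It stood over 28 input reads, 10.2 times the genome-wide background, and had no other cocaine peak within 14.4 kb. The next, on chromosome 19 (28220547 to 28223254), ran for 2708 bp and reached 42 fragments at a fold of 9.71, and a saline peak lay 4.44 kb away. On chromosome 1 (101782520 to 101784912) a 2393 bp peak had its summit 159 bp from the right edge, with a pileup of 74. Chromosome X (10400634 to 10402992) had 2359 bp with 37 fragments and a fold of 12.1, and chromosome 11 (31813213 to 31815270) had 2058 bp with 31 and 13.3. The other 5 were 1899 to 1955 bp long and lay on chromosomes 3, 8 and 15. Among these 10, pileup ranged from 25 to 84, 6 were under 3 times the background and 9 had a cocaine neighbour within 1 kb. The longest member of a chromosome was between 1263 bp (chromosome 17) and 3540 bp.

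The 10 highest pileups, 98 to 104, came mostly with deep input. At 8 of these peaks the local input reached 10 times the genome-wide level. The folds of all 10 lay between 4.88 and 8.96. With 1 tag kept per position and strand, a 54 bp fragment allows a pileup of at most 108, so these values were near the ceiling. A member on chromosome 3 (154043928 to 154044364) was tied for tallest, with 104 fragments over 25 input reads and a fold of 8.96. A second member of this list lay 964 bp further along (154045329 to 154045976), with a pileup of 98 and 38 input reads. On chromosome 8 (85839859 to 85840269) a pileup of 104 stood over 42 input reads, with 7 other cocaine peaks within 1 kb. Identical values were found on chromosome 3 (75643115 to 75644047) and on chromosome 11 (58672365 to 58672966), a pileup of 103 over 41 input reads and a fold of 5.60.

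The 10 highest folds came from ordinary input, with all 10 under 3 times the background and pileups from 53 to 84. The sharpest member, on chromosome 9 (20272709 to 20273185), measured 477 bp and had 59 fragments at its summit, a fold of 27.6 over the flat genome-wide background. Chromosome 6 (126442978 to 126443449) came next with 64 fragments and a fold of 27.5. The third, on chromosome 1 (221872241 to 221872962), spanned 722 bp and had 84 fragments over 5 input reads, a fold of 27.0 and the highest −log10 p of the members, 101. Chromosome 3 had the next 2, at 152810433 to 152810898 (fold 26.7) and 8632642 to 8633056 (fold 26.2). The remaining 5 had folds from 24.7 to 25.9 and lay on chromosomes 14 (11199119 to 11199683), 12 (13910764 to 13911256), X (156470611 to 156471070), 9 (73459123 to 73459746) and 6 (108821016 to 108821826). Of the 10, 6 lay in clusters of 10 peaks or more, against 3 of the 10 longest and 1 of the 10 tallest.

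Solitary members were as wide and as tall as the others. The 113 with no cocaine peak nearer than 10 kb had a median length of 525 bp, a median pileup of 40 and a median fold of 11.6. Members in clusters of 10 peaks or more had 518 bp, 38 and 12.2, and those in clusters of 2 to 9 peaks had 549.5 bp, 36 and 11.5. The most isolated, on chromosome X (51277645 to 51278261), spanned 617 bp with 75 fragments at a fold of 11.6, and the nearest cocaine peak was 934 kb away. On chromosome 14 (93041096 to 93042176) a 1081 bp member with a pileup of 76 had none within 588 kb. Those on chromosomes 11 (59442123 to 59442644), 16 (31611729 to 31612229) and 17 (24610490 to 24610965) had pileups of 31, 44 and 58 and gaps of 332, 297 and 283 kb. Of these 5, 4 stood over 12 to 15 input reads and the one on chromosome 11 over 5, all above the flat background.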

How the data were processed

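INO80 ChIP-seq and input libraries of rat nucleus accumbens were pooled by treatment by the authors, with 7.5 µg of antibody per ChIP sample, per the labels' protocols. Per the file headers, the authors called peaks with MACS 2.0.10.20131216 at a q cutoff of 0.05, with duplicates removed and the input scaled to the ChIP depth of 43489910 (cocaine) and 37905014 (saline) tags. Coordinates are on rn6 according to the submitters' processing notes. No aligner is named in the sources used here. Deposited values are pileup, a signal in fragments at the summit, fold, a ratio of pileup plus 1 to local background plus 1, and −log10 p-values, each used as deposited. Removing duplicates caps pileup at deep sites. Depth is known for the pools only.

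Peaks on sequences other than chromosomes 1 to 20 and X (443) were left out. Overlap meant 1 shared base, and gaps count bases between edges. Local background was recovered from pileup and fold, and was taken as whole input reads where it matched them within 0.0005 fragments. Intervals of shares are Wilson 95%. No test was run, since 1 list per treatment carries no replicate error and the members were chosen by measured values. The members, lists and bands were chosen with earlier results of these data known. Regions were named by rank of length, pileup, fold, members within 100 kb, summit nearest an edge, and gap to a saline or cocaine peak. Alternatives tried were other length limits, other overlap rules, ordinary background only, a −log10 p of 10 or more, and joined peaks. Python 3.11.15, numpy 2.4.6, pandas 2.3.3, scipy 1.17.1 and matplotlib 3.10.9 were used. Helper functions were tested on simulated data, where the source of the background was recovered for 99.8% of 5000 peaks.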

Additional observations from a re-analysis of the deposited data

How the results depend on the processing

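Over 7 alternatives and 5 results (member count, median pileup, median fold, off-centre distance of the summit and share with a neighbour within 1 kb), 20 of 35 values stayed inside the 95% interval of the reported value or, for the count, within 1.5 times. With a length limit of 300 bp there were 3972 members with a median pileup of 35, a median fold of 11.5 and 80.4% with a neighbour. With 500 bp there were 1228, with 39 and 12.3. Under 3 times the background the medians were 34 and 12.4. With −log10 p of 10 or more the neighbour share was 78.8%, since fewer neighbours were counted. Joining peaks closer than 500 bp gave 9307 regions, a median pileup of 29, a fold of 10.5, an off-centre distance of 0.363 and 39.7% with a neighbour. The 2 other saline rules moved none of the 5. No paired analysis was possible because the deposited lists pool the samples of a treatment, so no sample or replicate could be left out either.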
